A study of Mus musculus with 26 samples.

Results

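Zfas1, Snhg16, Gas5, Snhg1, Snhg8 and Snhg12 are long noncoding RNA genes whose introns carry small nucleolar RNAs (snoRNAs), and their transcripts were read here in pancreatic islets by 14 probe sets that the array's annotation assigns to 1 of these genes alone. They are 6 of the 18193 genes that the annotation names by a single symbol, and their probe sets are 14 of 45101. The group was chosen from measured values: it was picked on the lower signal of Zfas1 and Snhg16 at higher glucose in cultured islets, and the other 4 genes were added as hosts of the same kind. Differences between the glucose concentrations of the cultures are therefore described with their standard error (SE) and carry no test. For these 6 genes, tests were run on a time course of a few hours and on islets used fresh. The genes were chosen with earlier results of these data known, and the time course also goes from lower to higher glucose. Its calls are therefore not taken as independent of the choice. Lists of other genes were also tested between the cultures.

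Islets are the endocrine cell clusters of the pancreas. They came from young (5 weeks) or old (56 weeks) wild-type C57/Bl6J male mice, were rested in medium with 11 mM glucose for 1 day, and went into culture for a further 2 days. Old islets were kept at 3, 5.5 or 11 mM and young islets at 3, 5.5, 11 or 16 mM; islets of both ages were also used fresh. In a separate time course, islets of young mice spent a night at 3 mM (time 0) and were then moved to 11 mM for 1 h or 4 h. There are 26 arrays in 12 groups: 4 arrays of young islets at 11 mM and 2 of every other group. Replicates are labelled biological, but nothing says whether a sample pools several mice. A p-value here measures only the spread among the arrays, which may be technical.

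A snoRNA host gene is spliced like a messenger RNA gene; its exons form the host transcript, and the snoRNAs are trimmed out of the removed introns. Box C/D snoRNAs guide methylation and box H/ACA snoRNAs guide pseudouridylation of ribosomal RNA. Several noncoding hosts, with Gas5 the classic case, start with a run of pyrimidines called a 5′ terminal oligopyrimidine (TOP) tract, the signal that couples ribosomal protein messengers to growth signalling through mTORC1. Because such transcripts are bound by ribosomes yet hold only short reading frames, they are known targets of nonsense-mediated decay, and their spliced RNA accumulates when translation is blocked. Gas5 takes its name from its accumulation in growth-arrested cells.

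RefSeq (assembly GRCm38.p6) places 3 snoRNA genes inside Zfas1, among them Snord12, and 3 inside Snhg16, which are Snord1a, Snord1b and Snord1c. Gas5 and Snhg1 hold 8 each, Snhg12 holds 4 and Snhg8 holds 1, the H/ACA RNA Snora24. All 6 genes matched RefSeq's promoter table, Gas5 with a pair of start sites. The stretch from 60 bases before the annotated start to the 30 that begin with it is shown for each gene, because the start of the transcript is where the TOP tract would lie. Capitals mark a TOP tract (a C and at least 4 further pyrimidines that begin within 5 bases of the start) or a cyclic AMP response element; all are written 5′ to 3′ on the gene's strand.
Gas5, second start, chr1:161035106-161035195, plus strand: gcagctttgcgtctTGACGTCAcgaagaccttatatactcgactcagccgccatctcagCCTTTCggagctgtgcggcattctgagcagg
Snhg8, chr3:123508307-123508396, minus strand: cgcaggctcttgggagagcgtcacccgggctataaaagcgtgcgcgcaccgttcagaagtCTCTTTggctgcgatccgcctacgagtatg
Snhg12, chr4:132308618-132308707, plus strand: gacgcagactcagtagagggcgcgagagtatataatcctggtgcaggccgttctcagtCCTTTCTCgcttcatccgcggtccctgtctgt
Zfas1, chr2:167062874-167062963, plus strand: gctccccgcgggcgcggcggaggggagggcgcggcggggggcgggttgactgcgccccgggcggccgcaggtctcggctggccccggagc
Snhg16, chr11:116671600-116671689, plus strand: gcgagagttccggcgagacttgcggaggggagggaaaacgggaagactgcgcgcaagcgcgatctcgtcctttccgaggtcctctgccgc
Snhg1, chr19:8723427-8723516, plus strand: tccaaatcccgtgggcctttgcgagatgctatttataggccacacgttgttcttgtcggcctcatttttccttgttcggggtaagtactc

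A TOP tract by this definition stood in 3 of the 7 windows of these genes (Gas5 at its second start, Snhg8 and Snhg12), against 18.35% of all 32851 windows of the table. In the whole windows of 300 bases, searched on both strands, the cyclic AMP response element TGACGTCA occurred in 1 of 7, at the second start of Gas5, against 1.79% of all windows. The E-box CACGTG was in none of the 7 (7.15% of all), nor was TGATGNAA, the site shared by ATF4 and C/EBP factors (3.97% of all). A match describes these letters only, and a missing match says nothing about the factor.

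The arrays measure labelled RNA at probes near the 3′ end of a transcript, and values are the authors' MAS5 intensity, scaled so that the trimmed mean of every array is 150; array medians lay between 28 and 42. The Gapdh control has probe sets at both ends of its transcript, and the ratio of 5′ over 3′ signal tells how far the labelled RNA reaches. By this ratio the arrays split into 2 sets with no name in the labels. It was 1.03 to 1.479 in set A (12 arrays: old islets, fresh young islets, and young islets at 11 mM in replicates 3 and 4) and 0.1 to 0.277 in set B (14 arrays: the other cultured young islets and the time course). Arrays of 1 group correlated at 0.974 to 0.986 within a set and at 0.908 to 0.912 across the sets, so comparisons below stay within a set. The 6 endocrine markers, Ins2, Gcg, Sst, Iapp, Slc2a2 and Pdx1, were measured in every group and none was at 0 on all arrays of a group. All 14 probe sets of the host genes passed the filter on low values, which asks for a signal above the array's median on at least 2 arrays; Snhg16 1436677_at was above it on 13 of the 26.

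In the time course, 3 of the 14 probe sets changed between time 0 and 4 h at 11 mM glucose: those of Zfas1 and Snhg16 (1 of its 2) fell, and 1 of the 4 of Gas5 rose. Among all probe sets tested, 9.97% changed in this comparison. All later arrays come from islets moved to 11 mM. Effects of glucose, of elapsed time and of the move itself therefore cannot be told apart in the time course. No member probe set passed at 1 h against time 0, where 0.282% of all did, or at 4 h against 1 h, where 2.21% did; at an unadjusted p under 0.05 the members gave 3 and 2 calls of 14, where 6.41% and 13.5% of all probe sets did. The test was limma's moderated test on log2(intensity + 16) with Benjamini-Hochberg adjustment over 23047 probe sets. It took no account of a possible pairing of time course arrays by replicate number. Counts with that number as a block are given below.

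Snhg16, a host of the Snord1 family of box C/D RNAs, had the largest of these falls among the 14 probe sets. Its probe set 1453344_at read 145 and 189 at time 0, 85 and 95 at 1 h, and 54 and 47 at 4 h. The 3 times did not overlap. The mean was 3.31-fold lower at 4 h than at time 0, a log2 difference of -1.45 (SE 0.21, limma adjusted p = 0.000207). The readings at 4 h lie close to the array medians of 31 and 30, so the size of this fall is uncertain. At 1 h the log2 difference from time 0 was -0.78 (SE 0.21, limma adjusted p = 0.187), and from 1 h to 4 h it was -0.67 (SE 0.21, limma adjusted p = 0.110). Same-numbered arrays of the time course deviated alike from their group means (correlation 0.5 to 0.59 between groups), from which a pairing is inferred. With the number as a block the second step passed as well (limma adjusted p = 0.0370). The other Snhg16 probe set, 1436677_at, stayed between 17 and 52 on the 26 arrays, close to the array medians, and differed by 0.16 (SE 0.24) between 4 h and time 0.

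Zfas1, an antisense transcript at the start of the gene Znfx1 and host of Snord12, read 334 and 332 at time 0, 278 and 263 at 1 h, and 210 and 210 at 4 h. Each time lay below the one before it on both arrays. The fall from time 0 to 4 h was 1.59-fold, with a log2 difference of -0.63 (SE 0.15, limma adjusted p = 0.0115). It no longer passed when any 1 of the 4 arrays was left out (limma adjusted p = 0.0604 to 0.0739), although the difference itself stayed between -0.63 and -0.62. Without replicate 1 of time 0, Snhg16 was the only 1 of the 14 probe sets left past the threshold. At 1 h the log2 difference was -0.29 (SE 0.15, limma adjusted p = 0.870). Znfx1, which starts beside Zfas1 on the other strand, averaged 241.5 at time 0 and 281.5 at 4 h, a log2 difference of 0.21 (SE 0.20, limma adjusted p = 0.617).

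Gas5 gave a split answer. Probe set 1424843_a_at read 80 and 100 at time 0, 155 and 191 at 1 h, and 204 and 219 at 4 h, so that every later array was above time 0. It was 2.35-fold higher at 4 h, a log2 difference of 1.11 (SE 0.23, limma adjusted p = 0.00389). This call was lost without replicate 1 of time 0 (limma adjusted p = 0.0522) and in a fit with no term for the array set (limma adjusted p = 0.163). With the replicate number as a block it also passed at 1 h, where the log2 difference was 0.83 (SE 0.23; limma adjusted p = 0.205 without the block and 0.0150 with it).

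The other Gas5 probe sets moved less. Probe set 1436222_at read 274 and 250 at time 0 and 357 and 369 at 4 h, a log2 difference of 0.45 (SE 0.17, limma adjusted p = 0.0975, and 0.0390 with the replicate block). The 2 probe sets that were brightest in old islets overlapped between the times. Probe set 1419291_x_at read 1116 and 1141 at time 0 and 982 and 1190 at 4 h, a log2 difference of -0.06 with a 95% interval of -0.30 to 0.18. Probe set 1449410_a_at read 322 and 372 at time 0 and 350 and 383 at 4 h, a log2 difference of 0.08 with an interval of -0.16 to 0.31.

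Snhg12 and Snhg8, whose windows above carry a TOP tract, had lower values at 4 h that did not pass. Snhg12, a host of 3 H/ACA RNAs and Snord99, read 552 and 602 at time 0 and 430 and 440 at 4 h, with no overlap and a log2 difference of -0.39 (SE 0.16, limma adjusted p = 0.130). Snhg8 read 1524 and 1526 at time 0, 1478 and 1470 at 1 h, and 1414 and 1389 at 4 h. The times of Snhg8 did not overlap either, but the difference was small, -0.12 (SE 0.11, limma adjusted p = 0.589).

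Snhg1, known as the host gene of the U22 snoRNA, showed no change that passed in any of its 5 probe sets. Probe set 1433674_a_at read 410 and 510 at time 0 and 399 and 524 at 4 h, a log2 difference of 0.00 with a 95% interval of -0.43 to 0.43. Probe set 1433675_at read 513 and 700 against 476 and 520 (-0.26, SE 0.24), and 1439399_a_at read 2145 and 2730 against 2476 and 2844 (0.13, SE 0.18). The 2 dim ones were higher at 4 h: 1437658_a_at read 88 and 97 against 128 and 164 (0.57, SE 0.20, limma adjusted p = 0.0739, and 0.0321 with the replicate block), and 1454703_x_at read 60 and 83 against 116 and 113 (0.59, SE 0.30, limma adjusted p = 0.252). The replicate block thus brought the count of member probe sets past the threshold at 4 h from 3 to 5.

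**Figure D1:**
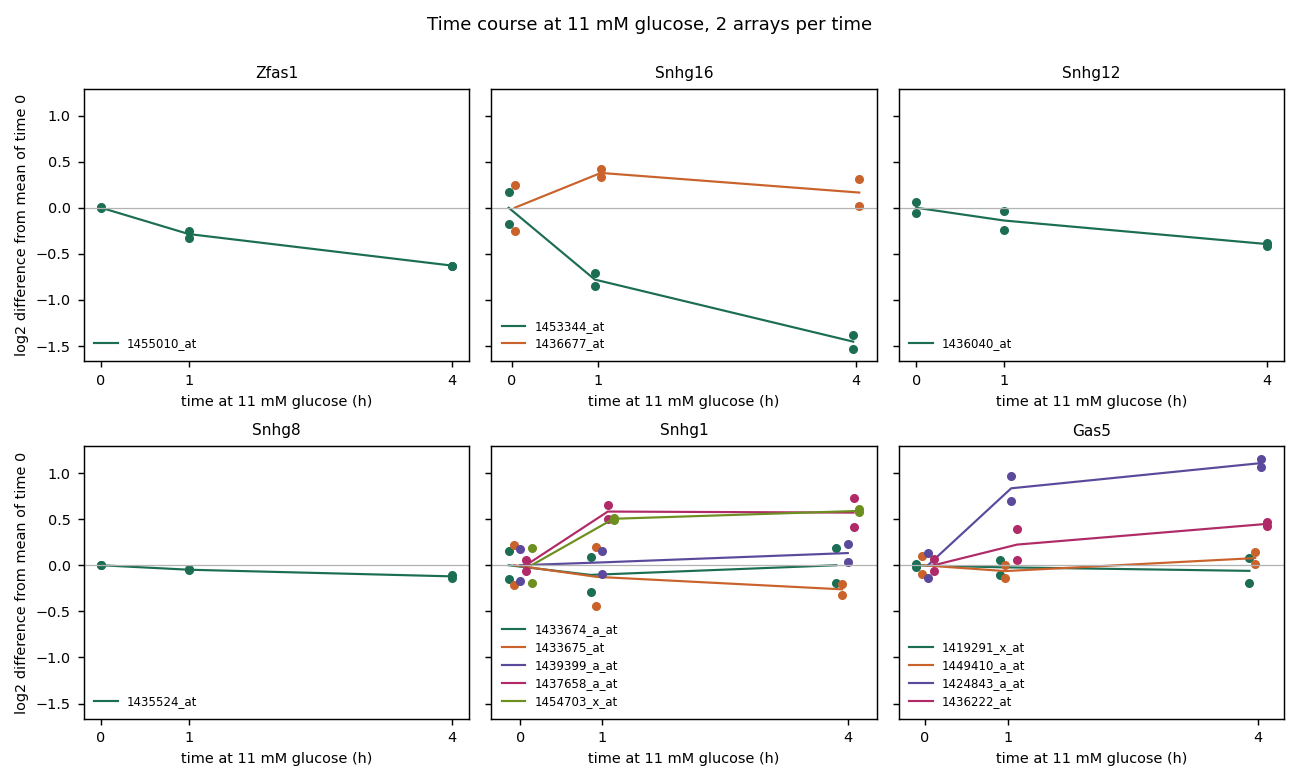
Log2(intensity + 16) of the 14 probe sets minus the mean of time 0 (vertical axis) against hours at 11 mM glucose (horizontal axis), 1 panel per gene; points are arrays and lines join the means of 2 arrays. Snhg16 probe set 1453344_at ends at -1.45 and Zfas1 at -0.63, while Gas5 probe set 1424843_a_at ends at 1.11 and the bright Gas5 probe sets near 0.

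None of the cell type markers checked passed in the time course, but their levels were not even. The summed intensity of 5 mesenchymal markers was 1473 to 1515 at time 0 and 1027 to 1138 at 4 h, and that of 5 acinar markers was 475 to 4251 at time 0 and 492 to 1136 at 4 h. Their part in the changes of the host genes was not tested. In RNA of whole islets, fewer cells of a type and less RNA per cell cannot be told apart.

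In islets cultured for 2 days, Zfas1 was high at 3 mM and low at 11 mM at both ages. Old islets read 1347 and 1439 at 3 mM, 524 and 446 at 5.5 mM, and 223 and 225 at 11 mM. Young islets of set B read 686 and 717 at 3 mM, 456 and 337 at 5.5 mM, 213 and 153 at 11 mM, and 179 and 167 at 16 mM. From 3 to 5.5 to 11 mM no groups overlapped, while 11 and 16 mM did. The mean at 3 mM was 6.22 times that at 11 mM in old islets (log2 difference -2.55, SE 0.15, for 11 against 3 mM) and 3.83 times in young islets (-1.87, SE 0.15). These are the values that chose the group.

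Snhg16 probe set 1453344_at took most of its step between 3 and 5.5 mM. It read 234 and 183 at 3 mM, 84 and 53 at 5.5 mM and 49 and 55 at 11 mM in old islets. Young islets read 202 and 166, 63 and 50, 39 and 38, and 35 and 42 at 3, 5.5, 11 and 16 mM. The log2 difference of 5.5 against 3 mM was -1.43 (SE 0.21) in old and -1.46 (SE 0.21) in young islets, and that of 11 against 5.5 mM in old islets was -0.29 (SE 0.21), with overlapping arrays. At 5.5 mM and above the signal was near the array medians, so how far it fell further cannot be read.

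Snhg12 was graded like Zfas1. Its signal was 746 and 763 at 3 mM, 517 and 400 at 5.5 mM, and 240 and 254 at 11 mM in old islets. In young islets it was 834 and 827, 471 and 360, 179 and 182, and 233 and 165 at the rising concentrations, with 11 and 16 mM overlapping. The log2 difference of 11 against 3 mM was -1.55 (SE 0.16) in old and -2.11 (SE 0.16) in young islets.

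Snhg8 and the bright Gas5 probe sets held their level up to 5.5 mM in old islets and were lower at 11 mM. Snhg8 read 1503 and 1478 at 3 mM, 1601 and 1587 at 5.5 mM, and 835 and 1017 at 11 mM in old islets, with log2 differences of 0.10 (SE 0.11) and then -0.78 (SE 0.11). In young islets it read 2468 and 2679, 2098 and 2095, 1378 and 1216, and 1249 and 1111, already lower at 5.5 than at 3 mM (-0.29, SE 0.11). Gas5 probe set 1419291_x_at read 2475 and 2717, 2683 and 2521, and 1733 and 1829 in old islets at 3, 5.5 and 11 mM. Young islets read 1948 and 2150, 2063 and 1850, 951 and 845, and 834 and 993 at 3, 5.5, 11 and 16 mM. At both ages 3 and 5.5 mM overlapped and 11 mM lay below both.

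Snhg1 had the widest span of the members in young islets, while in old islets that of Zfas1 was wider. Probe set 1433674_a_at read 1420 and 1206 at 3 mM, 282 and 181 at 5.5 mM, and 119 and 114 at 11 mM in young islets, an 11.3-fold span of the means (log2 difference -3.32, SE 0.20). In old islets it read 965 and 746, 275 and 226, and 150 and 180 (-2.26, SE 0.20). Probe set 1433675_at read 1493 and 1159, 396 and 252, and 199 and 212 in young islets and 1788 and 1409, 592 and 459, and 260 and 410 in old islets. Its log2 differences of 11 against 3 mM were -2.59 (SE 0.24) and -2.23 (SE 0.24). Probe set 1439399_a_at, the brightest, was less steep in young islets, with 4257 and 4248 at 3 mM and 1311 and 1544 at 11 mM (-1.57, SE 0.18). The dim 1437658_a_at and 1454703_x_at, which stayed at 70 to 164 and 48 to 121 on the 26 arrays, differed by -0.22 to 0.22 between 11 and 3 mM at the 2 ages.

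**Figure D2:**
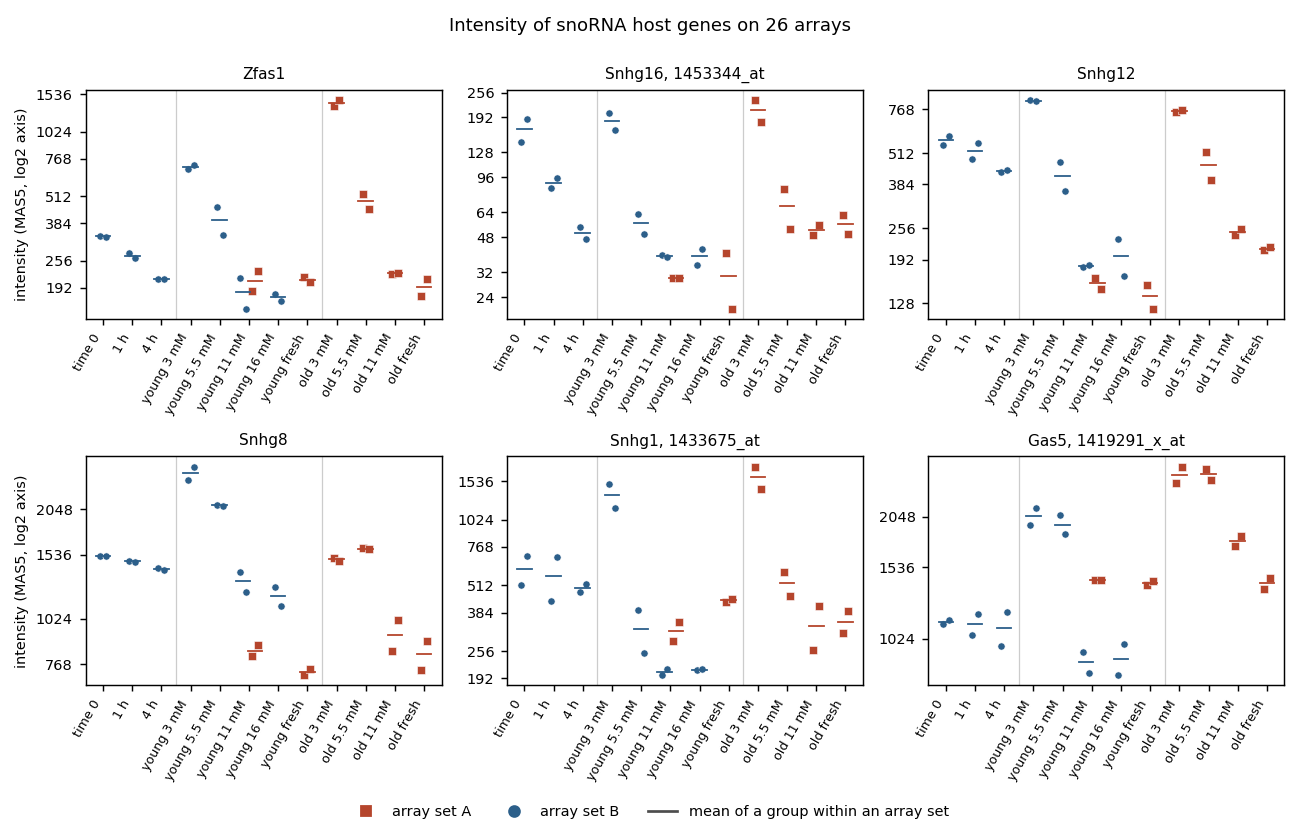
Intensity on a log2 axis (vertical) of 1 probe set for each of the 6 host genes in every group (horizontal); each point is 1 array, squares are array set A and circles set B, and lines are means of a group within a set. Zfas1, Snhg16, Snhg12 and Snhg1 are highest at 3 mM at both ages, with Zfas1 at 1347 and 1439 in old islets, and fresh islets read 176 to 215 in Zfas1.

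Counted over the 14 probe sets, 10 were lower with no overlap at 11 than at 3 mM in young islets of set B, where 27.2% of all probe sets tested were, and 1 was higher (31.8% of all). In old islets 9 were lower (27.4% of all) and 2 higher (30.0% of all). These comparisons chose the group. Between 11 and 16 mM, 1 of 14 did not overlap, where 31.7% of all did not, and the Zfas1 difference was -0.06 (SE 0.15). The hybridization control cre-3, whose RNA is added in a fixed amount, read 6314 and 6483 at 3 mM and 8089 and 8774 at 11 mM in old islets, and 5020 and 5841 against 5722 and 7079 in young islets of set B. At 11 against 3 mM, 2 of 6 endocrine markers passed as higher at each age, as did 2 of 6 macrophage markers in young and 1 in old islets. No acinar, ductal, endothelial or mesenchymal marker passed, and none of the markers measured was at 0 on all arrays of these groups. In old islets the summed endocrine markers read 28259 to 32688 at 3 mM and 38398 to 45636 at 11 mM, and the macrophage ones 2294 to 2622 and 3002 to 3011. In young islets the endocrine sum was 24297 to 30047 at 3 mM and 31759 to 49632 at 11 mM over both array sets, and the macrophage sum 766 to 914 and 894 to 2177. The part of these markers and of cre-3 in the differences with glucose was not tested.

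Gas5 probe sets again moved apart in the cultures. Probe set 1424843_a_at was lowest at 3 mM at both ages, with 56 and 67 at 3 mM and 98 and 130 at 11 mM in young islets of set B and 161 and 186 against 373 and 621 in old islets. The log2 difference of 11 against 3 mM was 0.74 (SE 0.23) and 1.40 (SE 0.23), where 1419291_x_at gave -1.18 (SE 0.11) and -0.54 (SE 0.11) and 1449410_a_at gave -1.08 (SE 0.11) and -0.52 (SE 0.11). Within each array the ratio of 1424843_a_at to 1419291_x_at was 0.0287 and 0.0312 at 3 mM and 0.103 and 0.154 at 11 mM in young islets of set B. In old islets it was 0.0651 and 0.0685 at 3 mM and 0.215 and 0.340 at 11 mM, and in fresh old islets 0.259 and 0.360. In the time course it went from 0.0717 and 0.0876 at time 0 to 0.208 and 0.184 at 4 h. The ratio shows unequal change of what the probe sets read, and which Gas5 transcript each one reads is not given in the sources used here.

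**Figure D3:**
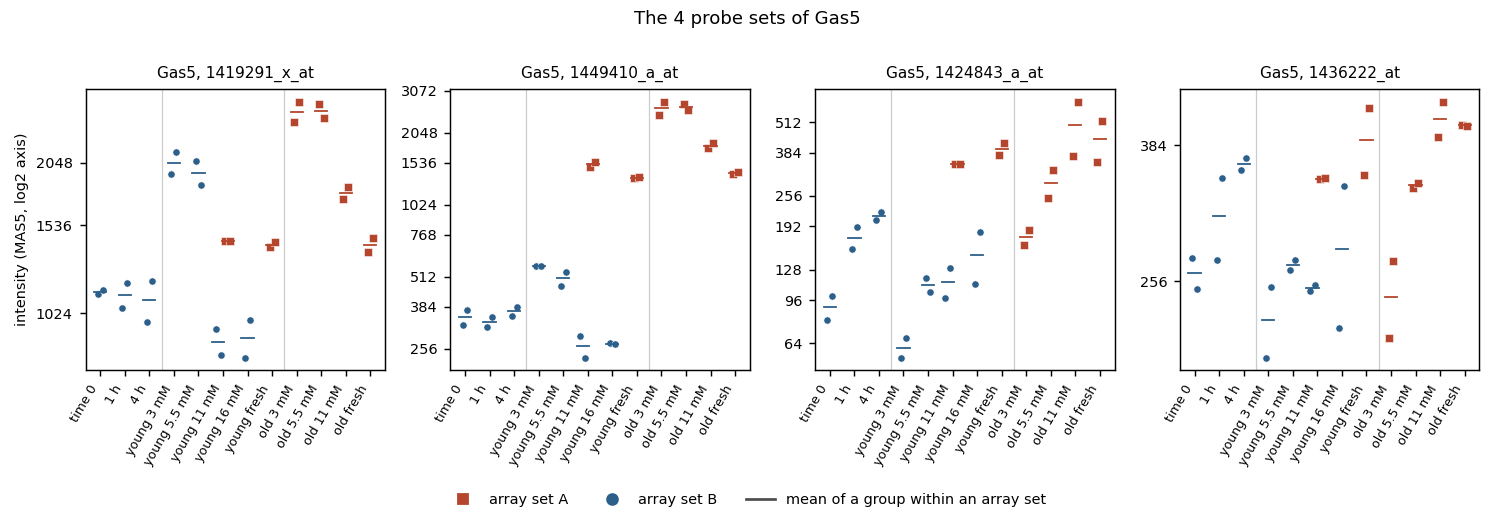
Intensity on a log2 axis (vertical) of the 4 Gas5 probe sets in every group (horizontal), with arrays as points, squares for array set A, circles for set B and lines for means within a set. Within each array set the 2 left probe sets are highest in the cultures of 2 days at 3 and 5.5 mM. There 1424843_a_at is lowest at 3 mM, with 56 and 67 in young islets. Probe set 1449410_a_at differs widely between the sets at the same condition (288 and 235 against 1478 and 1547 in young islets at 11 mM).

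Array set mattered for some probe sets even at the same condition. Young islets at 11 mM read 288 and 235 in set B and 1478 and 1547 in set A for Gas5 1449410_a_at, and 1311 and 1544 against 437 and 504 for Snhg1 1439399_a_at. Zfas1 read 213 and 153 against 185 and 229, with overlap. Old and young islets at 3 or 5.5 mM lie in different sets, and the effect of age there cannot be told apart from the array set.

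In Zfas1 and Snhg16, fresh islets read near those cultured at 11 mM, but other members differed. Zfas1 read 176 and 211 in fresh old and 215 and 203 in fresh young islets, and 185 and 229 in young islets at 11 mM of the same set. Old islets at 3 mM were 7.20-fold above fresh old islets in Zfas1 (log2 difference 2.75, SE 0.15) and 3.55-fold in Snhg12 (1.75, SE 0.16). Snhg16 averaged 208.5 against 56 in fresh old islets, where the array medians were 38 and 37. All 14 probe sets stood apart between 3 mM and fresh, 9 higher (30.5% of all probe sets were) and 5 lower (35.3% of all), among them Gas5 1424843_a_at (-1.23, SE 0.23) and 1436222_at (-0.71, SE 0.17). The cultures at 3 mM are among those that chose the group, and the 14 probe sets read only 6 genes. This count is therefore no independent support for a higher signal at 3 mM. At 11 mM the difference of old islets from fresh was 0.20 (SE 0.15) in Zfas1, 0.34 (SE 0.11) in Gas5 1419291_x_at and 0.38 (SE 0.11) in Gas5 1449410_a_at. There 6 of 14 did not overlap in old islets, where 43.6% of all did not, and 9 of 14 in young islets (43.7% of all). Over the 14 probe sets the median log2 difference from fresh was 0.89 at 3 mM and 0.11 at 11 mM in old islets. Cell type markers also differed from fresh old islets to old islets at 3 mM. Acinar sums read 11496 to 22934 and 140 to 426, endothelial ones 1794 to 1841 and 336 to 457. Endocrine sums read 34134 to 47266 and 28259 to 32688, ductal ones 25 to 28 and 15 to 21. Higher at 3 mM were mesenchymal sums, 601 to 715 and 884 to 1673, and macrophage sums, 1675 to 2058 and 2294 to 2622. The part of these markers in the differences from fresh was not tested.

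Within array set A, which holds 6 groups, Zfas1 was ordered old 3 mM, old 5.5 mM, old 11 mM, young fresh, young 11 mM and old fresh. The last 3 overlapped one another, and old 11 mM (223 and 225) lay within the range of young 11 mM. Within set B the order was young 3 mM, young 5.5 mM, time 0, 1 h, 4 h, young 11 mM and young 16 mM. In set B 5.5 mM and time 0 lay apart by only 337 against 334, and 11 mM overlapped with both 4 h and 16 mM. A night at 3 mM thus read 334 and 332, below 686 and 717 after 2 days at 3 mM; these come from separate experiments, and the culture before time 0 is described by the labels only as a night at this glucose.

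Age of the donor mice was tested in fresh islets. Only Snhg12 passed, 1 of 14 probe sets, against 7.14% of all probe sets tested. It read 209 and 216 in old and 152 and 122 in young islets, 1.55-fold higher in old islets with no overlap (log2 difference 0.59, SE 0.16, limma adjusted p = 0.0282). The call was lost without either old array (limma adjusted p = 0.110 and 0.127), without replicate 2 of the young ones (0.218), in a fit of that experiment's arrays alone (0.0999) and with no term for the array set (0.117). Snhg16 1453344_at read 62 and 50 against 40 and 21 (limma adjusted p = 0.0647); the median of both young arrays was 42, so the size of this difference cannot be read. Zfas1 differed by -0.11, with a 95% interval of -0.43 to 0.21, and the other 11 probe sets differed by -0.35 to 0.17. In the cultures at 11 mM of the same array set, the log2 difference of old against young islets was 0.63 (SE 0.16) in Snhg12. Snhg12 was not alone there, as 12 of the 14 probe sets were higher in old islets and 2 lower. Their median log2 difference was 0.17, beside -0.02 over all probe sets tested. The members were not tested in this comparison.

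All 5 mesenchymal markers were lower in fresh old islets, with summed intensities of 601 to 715 against 2091 to 3235 in young ones. Of the 6 endocrine markers 1 passed as lower, and their sums were 34134 to 47266 against 55556 to 57499. No acinar, ductal, endothelial or macrophage marker passed, although the 5 acinar markers summed to 11496 to 22934 against 5151 to 9776. The part of these markers in the Snhg12 difference was not tested.

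**Figure D4:**
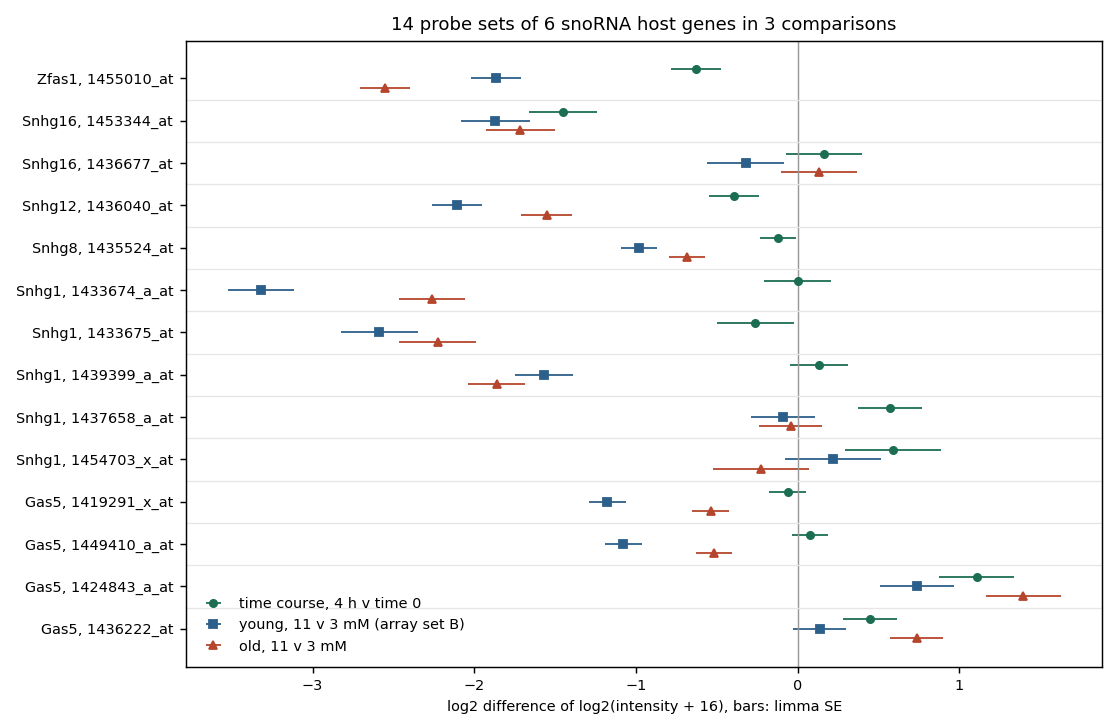
Log2 difference of log2(intensity + 16) (horizontal axis) for each of the 14 probe sets (vertical axis) in the time course and in cultured young and old islets; bars are limma's SE. Zfas1 is at -0.63, -1.87 and -2.55, Snhg16 1453344_at at -1.45, -1.87 and -1.72, and the 3 bright Snhg1 probe sets are near 0 at 4 h and at -1.57 to -3.32 in young cultures.

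The other noncoding snoRNA hosts of a list assembled for this comparison were measured for 12 of 16 genes, each through its brightest probe set. The list was chosen with earlier results of these data known, and the cultures tested are those that chose the members. Its calls there are therefore no independent support for the lower signal of the members. In young islets at 11 against 3 mM, 4 of the 12 fell, where 12.3% of all genes fell, and none rose (12.4% of all). Snhg6, whose mean went from 2463 to 483.5, fell by 2.31 on the log2 scale (SE 0.18, limma adjusted p = 4.17e-08). Snhg5 fell by 1.93 (SE 0.23), Snhg17 by 0.73 (SE 0.22) and Snhg7 by 0.68 (SE 0.17). With the replicate block 4 fell and 3 rose, and without replicate 1 at 3 mM or replicate 2 at 11 mM there were 2 calls.

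At 16 against 3 mM in young islets the same 4 genes fell, where 13.6% of all genes did, and Snhg18 and Rian rose, where 13.8% of all did. Rian, a long imprinted RNA that carries a large array of snoRNAs, had a log2 difference of 0.93 (SE 0.33, limma adjusted p = 0.0426), and Snhg18 one of 0.82 (SE 0.25, limma adjusted p = 0.0222). Without replicate 1 at 3 mM or replicate 2 at 16 mM there were 3 calls in place of 6, and with no term for the array set 4 fell and 0 rose. In old islets at 11 against 3 mM, Snhg6 (-1.76, SE 0.18), Snhg17 (-1.36, SE 0.22) and Snhg5 (-1.09, SE 0.23) fell, where 9.98% of all genes fell. Snhg11 (0.87, SE 0.24), Rian (1.15, SE 0.33) and Snhg18 (0.79, SE 0.25) rose, where 13.2% of all rose. Of the 4 arrays compared, leaving out any 1 other than replicate 1 at 11 mM brought those 6 calls to 3. Already at 5.5 mM, 2 of the 12 fell at each age: Snhg6 and Snhg5 in young islets (2.81% of all genes fell) and Snhg17 and Snhg6 in old islets (2.16% of all fell). Leaving out 1 array took the young count to 1, except with replicate 1 at 5.5 mM left out, and the old count 1 without replicate 1 at 5.5 mM and 0 without any other 1 of the arrays compared; both were 1 with no term for the array set.

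At 4 h of the time course the list gave another picture. Dancr, named for its role in keeping progenitor cells undifferentiated, rose (means 76 and 143.5, log2 difference 0.78, SE 0.18, limma adjusted p = 0.00726). Snhg7 also rose (means 102 and 163, 0.60, SE 0.17, limma adjusted p = 0.0298), although it fell in young cultures. So 2 of 12 rose and none fell, against 5.36% and 5.33% of all genes. With the replicate block 3 rose and 1 fell, and with no term for the array set 1 rose. Snhg7 was lost without any 1 of the 4 arrays (limma adjusted p = 0.0718 to 0.204), and Dancr without replicate 2 of time 0 (0.0698) or replicate 1 of 4 h (0.127). The list's median log2 difference was 0.23, beside -0.01 over all probe sets tested. The first takes 1 probe set per gene and the second takes every one, so the medians are not of like sets. In fresh islets Snhg11 rose with age (551.5 against 106, 2.22, SE 0.24, limma adjusted p = 1.61e-05). It was 1 of 12, where 5.14% of all genes rose.

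**Figure D5:**
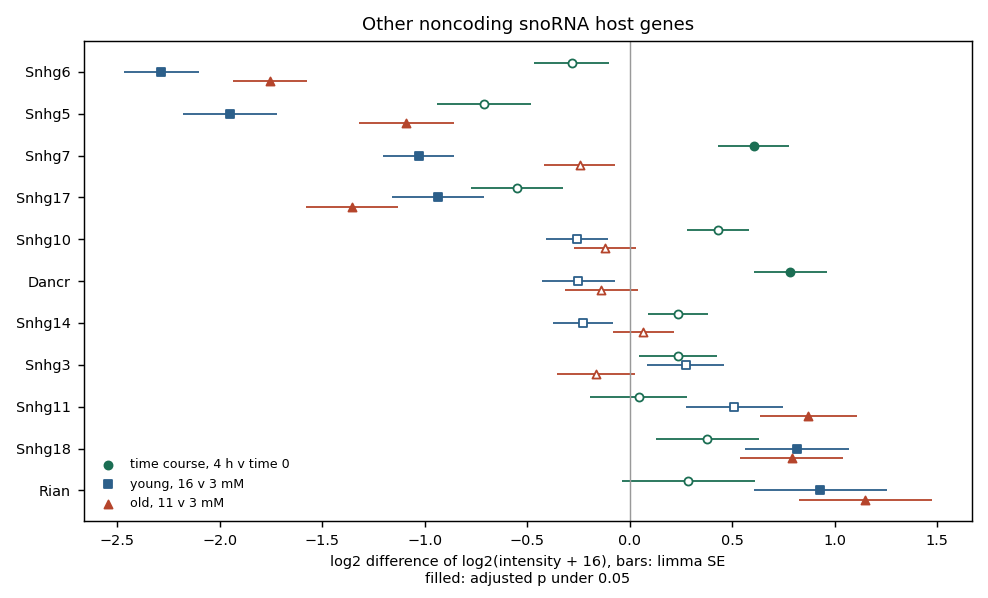
Log2 difference with limma's SE (horizontal axis) of 11 of the 12 measured other noncoding host genes (vertical axis) in the time course, in young islets at 16 against 3 mM and in old islets at 11 against 3 mM; filled symbols have an adjusted p under 0.05. Snhg6 and Snhg5 are at -2.29 and -1.95 in young cultures, and Dancr and Snhg7 are the filled symbols of the time course, at 0.78 and 0.60.

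The lists that follow were also chosen with earlier results of these data known. Their calls in the cultures are therefore no independent support for the lower signal of the members either. Protein-coding hosts carry snoRNAs in the introns of genes for ribosomal proteins, nucleolar proteins and chaperones. Of 20 measured, 10 fell and none rose in young islets at 11 against 3 mM, where 12.3% of all genes fell and 12.4% rose, led by nucleolin, Ncl (-0.88, SE 0.13), Rps2 (-0.81, SE 0.14) and Gnl3 (-0.92, SE 0.17). In old islets 7 fell, where 9.98% of all did, among them Rps2 (-1.03, SE 0.14) and Gnl3 (-1.13, SE 0.17). Their median log2 difference, over the brightest probe set of each gene, was -0.39 in young and -0.26 in old islets. Over all probe sets, which are not a like set, it was 0.04 and 0.01. At 4 h of the time course 2 rose, Nop56 and Eif4a1, where 5.36% of all genes rose; Eif4a1 was lost without any 1 of the 4 arrays (limma adjusted p = 0.0797 to 0.269). In fresh old islets 4 fell, where 3.16% of all genes did. That count was 0 with no term for the array set, 7 with the replicate block, 1 without replicate 2 of the old arrays and 2 without either young array.

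Nop56, a core protein of the box C/D particle and itself a host, was the only gene of the lists that had risen at 1 h (means 260 and 381, 0.53, SE 0.11, limma adjusted p = 0.0387), where 0.191% of all genes rose. That call was lost with no term for the array set (limma adjusted p = 0.871) and without any 1 of the 4 arrays (0.129 to 0.341). At 4 h it was 0.91 above time 0 (SE 0.11, limma adjusted p = 2.97e-05). In the cultures it was lower at 11 than at 3 mM, by -0.53 (SE 0.11) in young and -0.54 (SE 0.11) in old islets. Of the 10 measured genes of the box C/D particle and its assembly, 4 fell in young islets (12.3% of all genes fell) and 5 in old islets (9.98% of all), among them Nolc1 (-0.78 and -0.89, SE 0.12). The young count was 6 with the replicate block, 7 with each array scaled to 1 median, and 2 without replicate 1 at 3 mM or replicate 2 at 11 mM.

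Of the 7 measured nonsense-mediated decay factors, Smg5 (0.77, SE 0.15) and Upf2 (0.50, SE 0.15) rose at 4 h, where 5.36% of all genes rose. Upf2 was lost with no term for the array set (limma adjusted p = 0.138) and without any 1 of the 4 arrays (0.0760 to 0.275). In the cultures none of the 7 decay factors rose. At 11 against 3 mM in young islets 1 of them fell, where 12.3% of all genes fell. No decay factor passed in young islets at 16 against 3 mM or in old islets at 11 against 3 mM. Of 13 genes of mTORC1 signalling and TOP control, 3 fell at 4 h, where 5.33% of all genes fell. They were Eif4ebp1, the repressor of cap-dependent translation that mTORC1 phosphorylates (-1.05, SE 0.21, limma adjusted p = 0.00334), Tsc1, a subunit of the inhibitor of mTORC1 (-0.60, SE 0.12), and Sesn2, a leucine sensor that restrains mTORC1 (-0.76, SE 0.20). With no term for the array set 1 of the 3 passed, Tsc1, as was so without replicate 2 of time 0 or replicate 1 of 4 h. In young cultures at 11 against 3 mM Eif4ebp1 (-1.08, SE 0.21) and Larp1 (-0.33, SE 0.10) fell and Rheb, the activator of mTORC1, rose (0.41, SE 0.13). Without replicate 1 at 3 mM or replicate 2 at 11 mM the list had 1 call, a fall, in place of 3. In old islets none of the 13 fell and Deptor, an inhibitor of mTORC1, rose (0.33, SE 0.12). The list had no call there without any 1 array other than replicate 2 at 11 mM, and with the replicate block 2 fell and 2 rose.

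Within 1000 bases of Snhg1 lies Slc3a2, the heavy chain of amino acid transporters on the cell surface, and as near to Snhg12 lies Trnau1ap, a factor of selenocysteine transfer RNA. Slc3a2 fell at 4 h (means 3408 and 1461, log2 difference -1.21, SE 0.13, limma adjusted p = 7.2e-06), where Snhg1 1433674_a_at differed by 0.00 (SE 0.20). In young cultures at 11 against 3 mM Slc3a2 fell by 0.96 (SE 0.13) and Trnau1ap fell by 0.77 (SE 0.15).

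Across the 26 arrays, with each array set centred on its mean, the probe sets most like Zfas1 by Pearson correlation were those of Eef1d (0.947), Prxl2b (0.939), 2410006H16Rik (0.937), Nfu1, Aimp1 and Kcmf1 (0.930). 2410006H16Rik is a long noncoding RNA gene that holds 3 snoRNA genes in RefSeq, Snord49a, Snord49b and Snord65, and was in none of the lists. Most like Snhg16 was Ppp1r15a (0.969), the stress-induced subunit that directs dephosphorylation of eIF2α, then Clpp (0.938), Atg16l2, Faf1, Marchf7 and Mcrip1 (0.921). Among the members, the correlation with Zfas1 was 0.879 for Snhg8, 0.878 for Snhg12, 0.848 for Gas5 1449410_a_at, 0.847 for Snhg1 1433675_at and 0.842 for Snhg16 1453344_at, and 0.830 to 0.842 for Gas5 1419291_x_at and the other bright Snhg1 probe sets. It was 0.141 for Snhg16 1436677_at, -0.209 for Snhg1 1437658_a_at, -0.385 for Snhg1 1454703_x_at, -0.691 for Gas5 1436222_at and -0.773 for Gas5 1424843_a_at. These arrays share groups and scaling, and the values are a description.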

How the data were processed

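Each array's deposited table gives a linear intensity for every probe set, which the authors computed; the submitters' processing notes name MAS5, whose version is not given in the sources used here. Per the labels' protocols, 50 ng of RNA went through 2 cycles of cDNA synthesis. Of 45101 probe sets, 34945 carry 1 gene symbol, and 2 that name a host gene together with a snoRNA were left out. Intensities were used as log2(value + 16) with no further scaling, which understates changes of dim genes. limma 3.58.1 in R 4.3.3 was fitted to 23047 probe sets with 12 group means, the array set as a fixed factor (13 residual degrees of freedom) and an intensity trend; adjusted p under 0.05 was the threshold. Recovery was tested on simulated data. The members and lists were chosen with earlier results of these data known. Text names all member probe sets, up to 3 genes per list and comparison with the smallest adjusted p, all other noncoding hosts that passed, and the 6 probe sets most like Zfas1 and Snhg16. Deviations of same-numbered arrays correlated at 0.5 to 0.59 between groups of the time course (3 pairs of groups). Among the young cultures of set B the correlation was 0.16 to 0.38 (6 pairs), and among the old groups 0.081 to 0.29 (6 pairs). Old groups against young cultures of set B, which cannot share mice, gave 0.068 to 0.26 (16 pairs). Outside the time course the numbers are thus weak evidence of pairing, although the replicate block was set within each experiment, old islets included. The number of arrays limits the precision.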

Additional observations from a re-analysis of the deposited data

Results flagged for a closer look

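Probe set 1455904_at names Snord47 together with Gas5 and entered no comparison above, but a signal appeared there. It read 141 and 173 at time 0, 211 and 240 at 1 h, and 266 and 275 at 4 h, and rose by 0.73 on the log2 scale at 4 h (SE 0.23, limma adjusted p = 0.0460).

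Snhg8 differed in direction between the ages at 5.5 against 3 mM. Both old arrays at 5.5 mM were above both at 3 mM (1601 and 1587 against 1503 and 1478), and both young ones were below (2098 and 2095 against 2468 and 2679). The old log2 difference exceeded the young one by 0.39; this difference was not tested, and age and array set cannot be told apart here. Of 14 checks for an array far from the other 3 of young islets at 11 mM, 1 per probe set, 0 met the criterion. Those arrays come from both array sets. Where the sets differ, a single array could hardly stand apart, and the check says little there.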

How the results depend on the processing

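With a replicate block within each experiment, the count of member probe sets past the threshold was 1 at 1 h against time 0, 5 at 4 h against time 0, 1 at 4 h against 1 h and 2 in fresh islets, and the count of other noncoding hosts was 7 in young islets at 11 against 3 mM; fresh old and young arrays share only a number. Leaving out 1 array gave 1 to 2 member probe sets at 4 h (1 without replicate 1 of time 0), 0 to 2 in fresh islets (2 without replicate 1 of the young arrays, where Snhg16 rests on 1 young array that reads 21 at a median of 42), 3 to 5 other hosts in young islets at 16 against 3 mM, 2 to 6 at 11 against 3 mM and 3 to 5 in old islets; the lone array left is then assumed to vary like the other groups. In fresh islets the count was 0 with no array set factor and in a fit of that experiment's arrays alone, and 2 with an offset of 1 or quantile normalization. With no array set factor 7 other hosts passed at 11 against 3 mM in young islets. Differences near 0 changed sign. Snhg1 1433674_a_at at 4 h was -7.2e-05 with an offset of 1, -0.0016 with each array scaled to 1 median, and -0.19 to 0.19 without 1 array. Without 1 array, Gas5 1419291_x_at was -0.20 to 0.076, Gas5 1449410_a_at -0.022 to 0.18, Snhg1 1439399_a_at -0.041 to 0.30 and Snhg16 1436677_at -0.084 to 0.41 at 4 h. Zfas1 in fresh islets was 0.044 with each array scaled to 1 median and -0.23 to 0.013 without 1 array. Snhg16 1453344_at at 4 h kept its call under every alternative run (limma adjusted p 4.4e-05 to 0.0142). The cause of these shifts was not tested.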
